A study of Homo sapiens with 3 samples.

Results

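The unfolded protein and ATF4 stress genes comprised 34 genes of a list of symbols: 14 chaperones and folding enzymes of the endoplasmic reticulum (ER), 4 genes of ER-associated degradation, 4 stress sensors and their factors, and the transcription factor ATF4 with its targets, 12 genes in all. Each of the 34 had 1 row among the 60504 Ensembl identifiers of the expression table. They were measured by RNA-Seq in DLD1 cells, an established human colorectal cancer line, as 1 library of wild type cells (DLD1 control cells) and 2 libraries of BEX2-/- DLD1 cells made with CRISPR/Cas9, labelled KO1 and KO2 and called clone 1 and clone 2 here. The sources used here name no treatment of these cells. Edited clones were screened by sequencing, and the sources used here do not say whether KO1 and KO2 are separate clones or samples of 1 clone, so the spread between them may be clonal or that of replicates. A difference of BEX2-/- cells from the 1 control library cannot be told apart from a difference between clones and the wild type population.

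Proteins that enter the ER are folded there by chaperones, and proteins that fail to fold are drawn back into the cytosol and degraded. When unfolded proteins build up, the sensors ERN1 (IRE1), ATF6 and EIF2AK3 (PERK) are activated. ERN1 splices the mRNA of XBP1, and XBP1 and ATF6 then turn on chaperone and degradation genes. EIF2AK3 phosphorylates the translation factor eIF2alpha, which slows protein synthesis as a whole and favours translation of ATF4. Other kinases reach ATF4 in the same way when amino acids or heme run short, so its targets serve amino acid supply as well as ER stress. XBP1 splicing, eIF2alpha phosphorylation and ATF4 translation are not seen in gene-level mRNA values.

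Elements known from genes of the 2 arms were looked for in their promoters. RefSeq promoters on GRCh38.p14, from 250 bases before to 50 after the start of the gene, were searched on both strands for 33 of the 34 genes (PDIA3 had no match in the promoter table). The ER stress element (ERSE), CCAAT and CCACG with 9 bases of any kind between them, was found in 5 of 13 chaperone genes (HSPA5, HSP90B1, CALR, CANX and CRELD2) and in XBP1, against 0.0769% of 35116 promoters. The shorter ERSE-II, ATTGG and CCACG with 1 base between them, was found in HYOU1, SDF2L1 and HERPUD1, against 0.0541% of promoters. The UPRE, TGACGTGG, lay in HYOU1 alone among the 33 genes, where it overlapped an ERSE-II, against 0.729% of promoters. The letters TGATGNAA of the C/EBP-ATF response element (CARE), to which ATF4 can bind, were found in CHAC1, ASNS and HERPUD1, against 3.62% of promoters. No promoter of the 12 ATF4 arm genes held an ERSE, an ERSE-II or a UPRE in this window, but with such low shares few matches would be found in any 12 promoters. The elements were known from such genes beforehand, so the matches do not test a difference between the arms. A match is a run of letters and was not measured as a binding site here.

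The stretches shown here carry those elements in 5 chaperone genes with a single match, in XBP1, in HERPUD1, which held both kinds, and in the pair of ATF4 targets with a CARE. HSP90B1 and HYOU1, with 2 matches farther apart, are not shown. They are written in the direction of the gene, with the bases of the element in capitals; an element on the opposite strand reads as its reverse complement (CGTGG to the left and ATTGG to the right for an ERSE). They lie at chr9:125241379-125241421 (minus strand), chr19:12938372-12938414 (plus), chr5:179698766-179698808 (plus), chr22:49918542-49918584 (plus), chr22:21642102-21642136 (plus), chr22:28800591-28800633 (minus), chr16:56931954-56932047 (plus, CARE to the left and ERSE-II to the right), chr15:40953250-40953281 (plus) and chr7:97872457-97872488 (minus).
HSPA5: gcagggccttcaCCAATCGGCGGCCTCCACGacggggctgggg
CALR: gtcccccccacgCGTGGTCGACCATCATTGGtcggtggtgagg
CANX: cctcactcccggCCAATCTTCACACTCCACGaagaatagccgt
CRELD2: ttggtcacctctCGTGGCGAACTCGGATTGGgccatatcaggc
SDF2L1: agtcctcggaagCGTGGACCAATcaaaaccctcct
XBP1: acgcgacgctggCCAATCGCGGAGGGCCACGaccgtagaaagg
HERPUD1: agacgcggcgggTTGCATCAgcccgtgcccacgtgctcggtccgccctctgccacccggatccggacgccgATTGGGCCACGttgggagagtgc
CHAC1: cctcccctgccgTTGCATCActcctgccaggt
ASNS: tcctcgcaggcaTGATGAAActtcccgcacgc

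Values are FPKM, the fragments of a gene per kilobase of its exons and per unit of library size. Most low values were whole multiples of 1 read, which gave depths of 47458850 reads for the control, 35593989 for clone 1 and 47722374 for clone 2. Epithelial markers were abundant, with EPCAM at 220 to 282 FPKM, whereas the intestinal markers VIL1 (3.61, 13.2 and 0.221 FPKM in DLD1 control cells, clone 1 and clone 2) and CDX1 (0.4555, 0.815 and 0.0834 FPKM) were low in clone 2. Each of 9 markers of blood, stromal, endothelial and liver cells lay at or below 0.0875 FPKM, and their sums were 0.154, 0.161 and 0.262 FPKM. BEX2 was at 0 in every library, where 3 reads would be 0.0538, 0.0717 and 0.0535 FPKM, so its mRNA does not check the labels. All 6 proliferation markers were lower in clone 2 than in DLD1 control cells (median log2 ratio -0.38), against 3 of 6 in clone 1 (median -0.01).

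Clones were compared with DLD1 control cells by the log2 ratio of FPKM + 1, which understates differences of low genes. Of the 34 genes, 32 reached 1 FPKM when the control was averaged with the clone mean, as did 11675 genes in all. ERN1 lay just below this limit, at 0.844 FPKM in the control, 1.06 in clone 1 and 1.20 in clone 2, and VLDLR, a lipoprotein receptor and ATF4 target, lay at 0.463, 0.737 and 0.314 FPKM. EIF2AK3 was the lowest member above it. Ratios of single genes are given as FPKM ratios without the added 1, with exact 95% intervals from the recovered reads that cover counting error only and not the spread between cultures. In such bulk libraries, fewer cells that express a gene and less of its RNA per cell cannot be told apart.

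**Figure D1:**
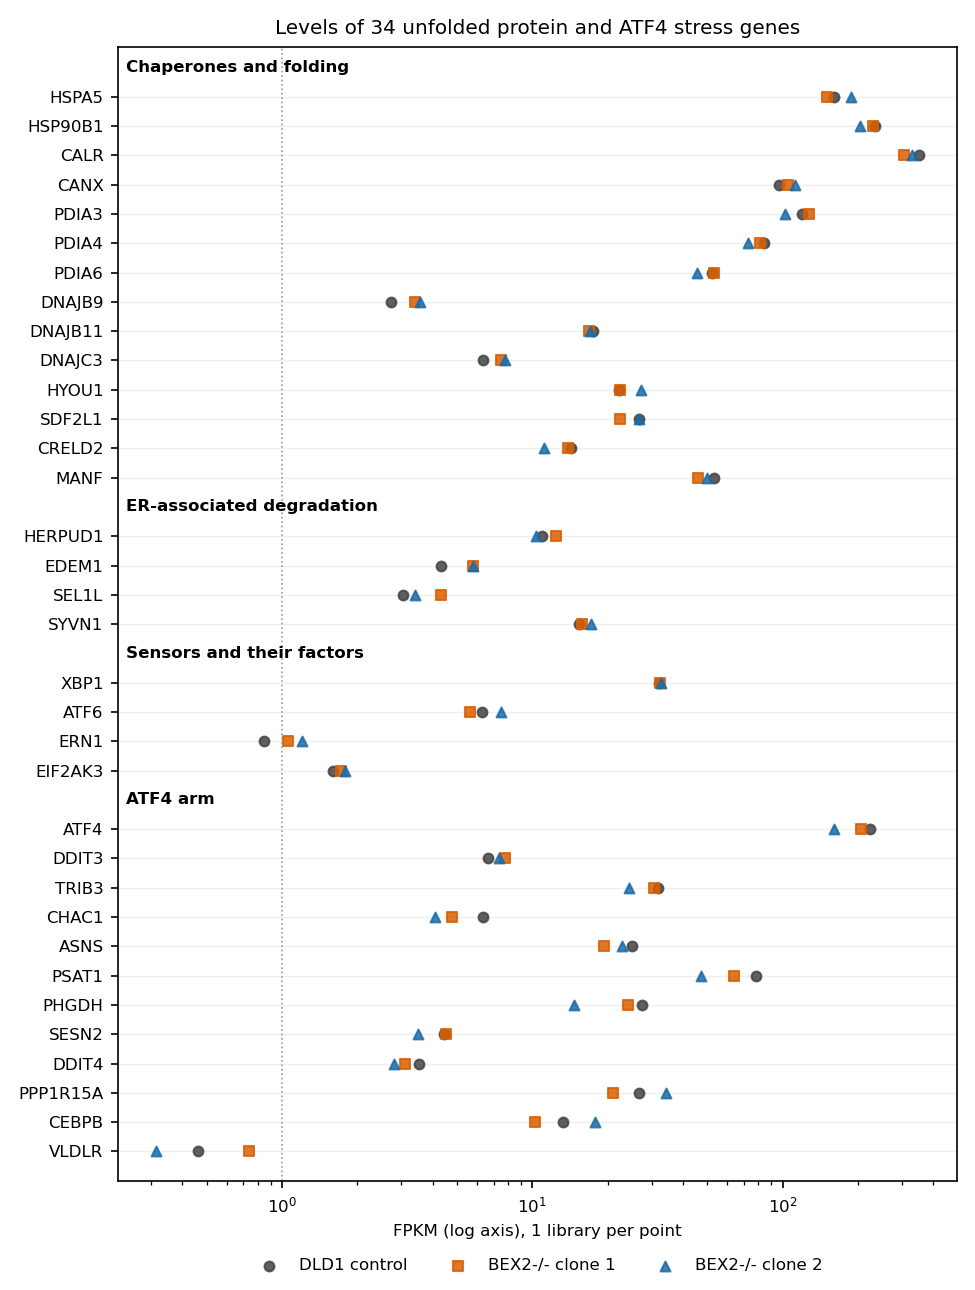
FPKM on a log axis of the 34 genes in DLD1 control cells (grey circles), clone 1 (orange squares) and clone 2 (blue triangles), 1 library per point, grouped by role, with a dotted line at 1 FPKM. The 3 libraries lie close together for most genes, and the levels run from 0.314 FPKM (VLDLR, clone 2) to 350 FPKM (CALR, DLD1 control cells).

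None of the 14 chaperones differed 1.5-fold between any pair of libraries. Of all genes, 6.25% did in clone 1, 8.33% in clone 2 and 12.4% between the clones. The median absolute log2 ratio of the chaperones was 0.09 in clone 1 and 0.21 in clone 2, beside 0.16 and 0.19 for all genes. In clone 2 they were thus no steadier than other genes. Differences of this size can turn with the scaling. In the deposited values 6 chaperones were lower in both clones, but only CALR and MANF when the libraries were scaled to TPM (a common sum for every library). Their log2 ratios ran from -0.24 to 0.23 in clone 1 and from -0.33 to 0.29 in clone 2, with medians of -0.03 and -0.06 beside 0.04 and -0.01 for all genes. CALR, a calcium-binding lectin chaperone, was the most abundant, at 350 FPKM in the control, 306 in clone 1 and 330 in clone 2. Its membrane-bound relative CANX stood at 96.7, 105 and 112 FPKM, and was higher in both clones while CALR was lower in both. HSP90B1, the HSP90 of the ER, measured 235, 230 and 204 FPKM. HSPA5 (BiP), the HSP70 of the ER and the usual readout of ER stress, stood at 161 FPKM in the control, 151 in clone 1 and 187 in clone 2. It was thus lowest in one clone and highest in the other, with ratios to the control of 0.939 (0.922 to 0.956) and 1.17 (1.15 to 1.18).

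The helpers of HSPA5 were mostly level or slightly higher in clone 2. HYOU1, which exchanges the nucleotide of HSPA5, stood at 22.3, 22.5 and 27.3 FPKM. The J proteins, which bring clients to HSPA5, were at 2.73, 3.39 and 3.56 FPKM for DNAJB9, at 17.5, 16.9 and 17.0 FPKM for DNAJB11, and at 6.35, 7.52 and 7.75 FPKM for DNAJC3. DNAJB9 had the highest ratio of the chaperones in each clone, at 1.24 (1.07 to 1.44) in clone 1 and 1.30 (1.13 to 1.496) in clone 2. SDF2L1, a partner of DNAJB11, stood at 26.6, 22.3 and 26.7 FPKM, so that clone 1 was the lowest.

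The disulfide isomerases among the members, which form and rearrange the disulfide bonds of clients, were each lowest in clone 2. This did not hold for PDIA5, outside the members, at 6.63, 7.46 and 7.76 FPKM in DLD1 control cells, clone 1 and clone 2. PDIA3, which works with CALR and CANX, measured 120, 127 and 102 FPKM in DLD1 control cells, clone 1 and clone 2. PDIA4 measured 84.4, 81.5 and 72.8 FPKM, and PDIA6 measured 52.1, 53.1 and 45.5 FPKM. CRELD2, an ER protein that is secreted under stress, was also lowest in clone 2, at 14.2, 13.9 and 11.2 FPKM, a ratio to the control of 0.783 (0.744 to 0.823). MANF, a secreted stress factor that binds HSPA5, was lower in both clones, at 53.1, 45.9 and 49.97 FPKM. The 5 chaperone genes with an ERSE did not share a direction: HSP90B1, CALR and CRELD2 were lower in both clones (HSP90B1 and CRELD2 not in clone 1 with TPM), CANX was higher in both, and HSPA5 was lower in clone 1 and higher in clone 2.

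Genes of ER-associated degradation were level or higher in the clones, with medians of 0.26 in clone 1 and 0.14 in clone 2 over 4 genes. EDEM1, a lectin that leads misfolded glycoproteins to degradation, stood at 4.32 FPKM in the control, 5.82 in clone 1 and 5.77 in clone 2, ratios of 1.35 (1.25 to 1.45) and 1.34 (1.25 to 1.43). SEL1L, the adaptor of the ubiquitin ligase SYVN1, stood at 3.04, 4.31 and 3.41 FPKM, and SYVN1 itself at 15.4, 15.8 and 17.2 FPKM. HERPUD1, a membrane protein of the same complex, stood at 11.0, 12.4 and 10.4 FPKM. EDEM1 and SEL1L thus had both clones above the control by more than counting error, HERPUD1 only clone 1 and SYVN1 only clone 2. Scaling by the median ratio put SYVN1 at -0.01 in clone 1, with EDEM1 and SEL1L above 0 in both clones under each scaling.

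Of the sensors and their factors, XBP1 and EIF2AK3 differed from the control by no more than counting error, and ATF6 and ERN1 by more. XBP1 mRNA stood at 32.1 FPKM in the control, 32.3 in clone 1 and 32.7 in clone 2, and both ratios included 1 in their counting intervals (0.964 to 1.05 and 0.977 to 1.06). ATF6 stood at 6.30, 5.63 and 7.50 FPKM, lowest in clone 1 and highest in clone 2. EIF2AK3 stood at 1.59, 1.73 and 1.78 FPKM, and its intervals also included 1. ERN1, below the limit on low values, had ratios of 1.25 (1.09 to 1.44) and 1.42 (1.25 to 1.61) on 409 to 621 reads a library.

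In the ATF4 arm, PHGDH and PSAT1 of serine synthesis had the lowest ratios to the control in clone 2, and CHAC1 and ASNS were among the lowest in clone 1. PHGDH (ENSG00000092621, chromosome 1), the first enzyme of serine synthesis from glucose, measured 27.4 FPKM in the control, 24.1 in clone 1 and 14.7 in clone 2. Its clone 2 value lay below both other libraries, with a ratio to the control of 0.537 (0.517 to 0.558) and to clone 1 of 0.611 (0.585 to 0.637), while clone 1 stood at 0.879 (0.848 to 0.912) of the control. PSAT1 (ENSG00000135069, chromosome 9), the next enzyme of that route, measured 78.1, 64.0 and 47.0 FPKM, in the same order, with ratios to the control of 0.819 (0.791 to 0.849) in clone 1 and 0.602 (0.581 to 0.624) in clone 2. ASNS, which makes asparagine, measured 24.99, 19.3 and 22.9 FPKM and was lowest in clone 1. On the log2(FPKM + 1) scale PHGDH was at -0.18 in clone 1 and -0.85 in clone 2, and PSAT1 at -0.28 and -0.72.

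ATF4 mRNA itself was lower in both clones, at 224 FPKM in the control, 206 in clone 1 and 160 in clone 2, with ratios of 0.922 (0.905 to 0.940) and 0.717 (0.704 to 0.730). Its processed pseudogene ATF4P3 was listed at 2.04, 1.224 and 1.65 FPKM, and reads may be split between the pair. CHAC1, an enzyme that breaks down glutathione, stood at 6.35, 4.76 and 4.07 FPKM, and its clone ratios were 0.751 (0.656 to 0.857) and 0.642 (0.564 to 0.729). TRIB3, a pseudokinase that restrains ATF4, stood at 31.9, 30.5 and 24.4 FPKM. Both are induced by ATF4 under stress. As deposited, both had the order control, clone 1, clone 2 from high to low, as ATF4, PSAT1, PHGDH and DDIT4 had. With TPM, TRIB3 in clone 1 was level with the control (log2 ratio -0.0012). ASNS, SESN2, PPP1R15A, CEBPB and VLDLR of the arm did not have this order, and its share of all genes was not counted. DDIT3 (CHOP), the transcription factor that leads prolonged ER stress to cell death, did not follow that order, at 6.62, 7.79 and 7.35 FPKM, although 39.6% of its exon bases overlap other genes, which leaves its reads uncertain.

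Both inhibitors of the growth kinase mTORC1 in the arm were lowest in clone 2, though DDIT4 did not differ between the clones by more than counting error. SESN2 stood at 4.44, 4.52 and 3.50 FPKM. DDIT4 stood at 3.51, 3.09 and 2.81 FPKM, with 41.2% of its exon bases shared with its antisense gene DDIT4-AS1. Its ratio was 0.879 (0.739 to 1.04) for clone 1 to control and 0.911 (0.761 to 1.09) for clone 2 to clone 1. ASNS likewise shares 44.6% of its exon bases with a neighbouring gene, PDIA6 25.2%, DNAJB11 23.2%, PDIA3 18.9%, EIF2AK3 15.1% and CEBPB 11.8%, and use of strand in counting is not stated in the sources used here.

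Within the ATF4 arm, PPP1R15A and CEBPB were highest in clone 2 and lowest in clone 1. PPP1R15A (GADD34, ENSG00000087074, chromosome 19), the phosphatase subunit that removes the phosphate from eIF2alpha, measured 26.7 FPKM in the control, 20.9 in clone 1 and 34.2 in clone 2. The control lay between the clones, at ratios of 0.783 (0.743 to 0.824) and 1.28 (1.23 to 1.34), and clone 2 was at 1.64 (1.56 to 1.72) of clone 1. CEBPB (ENSG00000172216, chromosome 20), a transcription factor that pairs with DDIT3 and ATF4, measured 13.3, 10.3 and 17.8 FPKM, with clone 2 at 1.73 (1.59 to 1.89) of clone 1. VLDLR, below the limit on low values, went the other way between the clones, with clone 2 at 0.426 (0.344 to 0.527) of clone 1 on 140 and 245 reads. None of these genes can be given a single direction for BEX2-/- cells.

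**Figure D2:**
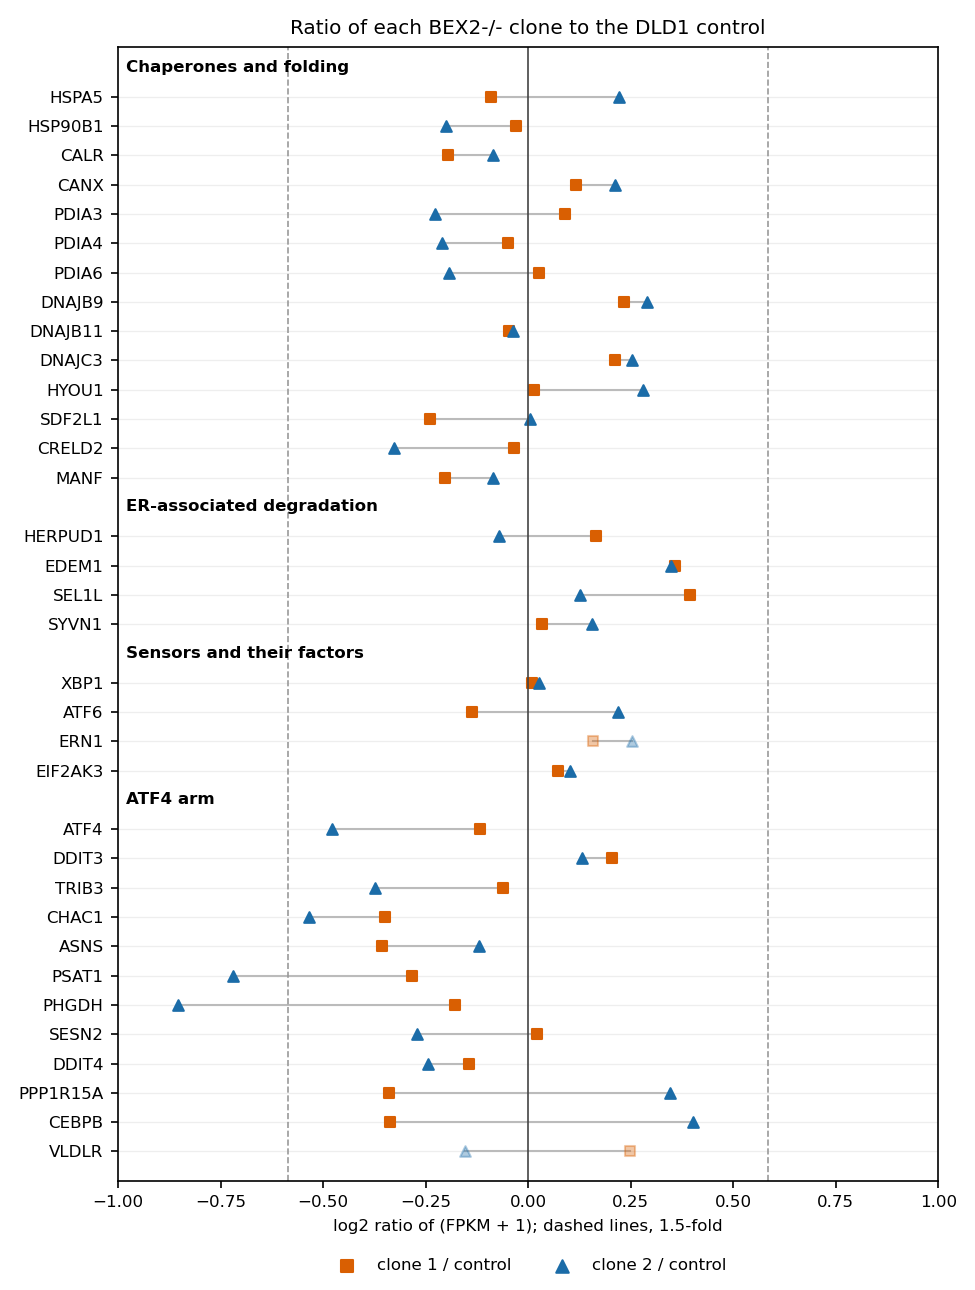
Log2 ratio of FPKM + 1 of clone 1 (orange squares) and clone 2 (blue triangles) to DLD1 control cells for the 34 genes, joined by a line for each gene, with dashed lines at 1.5-fold and pale symbols for ERN1 and VLDLR, which lay below the limit on low values. The chaperones spread around 0 in both clones, PHGDH (-0.85) and PSAT1 (-0.72) pass 1.5-fold in clone 2, and PPP1R15A and CEBPB have the clones on opposite sides of 0.

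By the 1.5-fold measure, 0 of 32 genes differed between clone 1 and DLD1 control cells, against 6.25% of all 11675 genes. In clone 2, 2 of 32 differed, PHGDH and PSAT1, both lower, against 8.33% of all genes. Between the clones 3 of 32 differed, PHGDH lower and PPP1R15A and CEBPB higher in clone 2, against 12.4% of all genes. No member differed 1.5-fold in both clones with 1 direction, as 1.17% of all genes did. The members' shares were thus no higher than those of all genes in any comparison, and at 2-fold none of the 32 differed in any of them. ERN1 and VLDLR, below the limit on low values, are outside these counts. The FPKM ratio of VLDLR in clone 2 to clone 1, without the added 1, was 0.426.

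The ATF4 arm stood lower than the chaperone arm in both clones. The median log2 ratio was -0.18 in clone 1 and -0.27 in clone 2 over the 11 ATF4 arm genes, against -0.03 and -0.06 over the 14 chaperones, a difference of -0.15 and -0.21. Averaged over the clones the medians were -0.23 and -0.05, a difference of -0.18. Both clones were divided by the same control library, so they are not independent of each other. Clone 2 against clone 1, which leaves out the control, had a median of -0.18 in the ATF4 arm and of 0.05 in the chaperones, beside -0.05 for all genes.

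Counted by direction, 9 of the 11 ATF4 arm genes were lower than the control in clone 1 and 8 in clone 2, against 43.8% and 51.6% of all genes. Of the 14 chaperones, 8 were lower in each clone. Lower in both clones were 7 of 11 ATF4 arm genes (ATF4, TRIB3, CHAC1, ASNS, PSAT1, PHGDH and DDIT4) and 6 of 14 chaperones, against 27.7% of all genes, and higher in both were 1 of 11 (DDIT3) and 4 of 14 (CANX, DNAJB9, DNAJC3 and HYOU1), against 32.4%. Among these genes, counting intervals of the ratio to the control included 1 for DDIT4, CRELD2 and HYOU1 in clone 1, DDIT3 in clone 2 and DNAJB11 in both. Between the clones, 8 of 11 ATF4 arm genes and 5 of 14 chaperones were lower in clone 2, against 57.8% of all genes. When the libraries were scaled to TPM, the chaperone median turned to 0.03 in clone 1 and 0.01 in clone 2, and 2 of 14 chaperones were lower in both clones against 19.8% of all genes, so no direction is given for the chaperones. The same 7 ATF4 arm genes were lower in both clones under that scaling, TRIB3 by less than 0.01 in clone 1, with medians of -0.12 and -0.25. The lower proliferation markers of clone 2 stand beside its lower ATF4 arm, and their part in it was not tested.

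A test of both clones against the control with limma, in which the lone control is assumed to vary like the clones, gave no gene an adjusted p under 0.05 (0% of 11675 genes), and 139 genes (1.19%) an unadjusted p under 0.05. None of the 32 members was among the 139. CHAC1 had the lowest unadjusted p of the members, 0.10 by limma, with a log2 difference of -0.44 (SE 0.20) and an adjusted p of 1.00. PSAT1 stood at -0.50 (SE 0.26) and PHGDH at -0.52 (SE 0.35). The differences described here are thus between single libraries, and none passed this test against the spread between the clones. With 1 residual degree of freedom, the lack of calls does not show that the genes were unchanged.

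The wider pathway was read from lists of other genes. Among 31 further genes of ER folding and secretion above the limit on low values, none differed 1.5-fold from the control in either clone. The shares of all genes were 6.25% in clone 1 and 8.33% in clone 2, so few calls would be looked for in short lists. The medians of the 31 were 0.01 in clone 1 and -0.09 in clone 2. WFS1, a calcium regulator of the ER membrane, had the largest difference between the clones, at 20.1 FPKM in the control, 13.8 in clone 1 and 28.9 in clone 2. ERO1A, which oxidises the disulfide isomerases, followed at 11.5, 10.7 and 16.2 FPKM. Of 11 further degradation genes none differed 1.5-fold from the control, against the same 6.25% and 8.33%. Of these 11, 6 were higher in both clones, against 32.4% of all genes (medians 0.17 and 0.08). EDEM2, at 12.8, 12.8 and 9.73 FPKM, and RNF139, at 8.30, 10.3 and 7.86 FPKM, differed most between the clones.

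The other ATF4 targets for amino acid uptake and synthesis had medians of -0.23 in clone 1 and -0.28 in clone 2, but of 0.03 between the clones, where the ATF4 arm stood at -0.18. Of 14 genes above the limit, 9 were lower in both clones, against 27.7% of all genes. SLC38A2 (log2 ratios 0.12 and 0.25) was the 1 gene higher in both, against 32.4%. GPT2, which links alanine and pyruvate, stood at 8.01, 7.96 and 4.41 FPKM. CTH, of the transsulfuration route to cysteine, stood at 2.05, 3.63 and 1.61 FPKM. Both were lowest in clone 2, but CTH was highest in clone 1, with a log2 ratio to the control of 0.60. By the 1.5-fold measure, 1 gene was higher (CTH) and 1 lower (SLC7A5) in clone 1, against 6.25% of all genes. In clone 2, 1 gene was lower (GPT2), against 8.33% of all genes. The next 3 genes of this list, all lower in both clones, were chosen after their values were seen. PSPH, the last enzyme of serine synthesis, stood at 18.1, 13.8 and 12.6 FPKM, and SHMT2, which turns serine into glycine in mitochondria, at 41.6, 29.7 and 32.2 FPKM. SLC7A5, a carrier of large neutral amino acids, stood at 76.0, 39.0 and 52.1 FPKM, lowest in clone 1.

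Aminoacyl-tRNA synthetases, which load tRNAs and are also ATF4 targets, stayed nearer to the control, with medians of -0.02 and -0.15 over 12 genes, 5 of them lower in both clones against 27.7% of all genes. LARS1 stood at 9.46, 11.1 and 8.42 FPKM and IARS1 at 38.9, 39.4 and 31.8 FPKM. Of 8 further regulators and secreted factors, 5 were lower in both clones, against the same 27.7% (medians -0.19 and -0.29). EIF4EBP1 is an ATF4 target that restrains cap-dependent translation. It was the only gene above the limit in any list to differ 1.5-fold alike in both clones, as 1.17% of all genes did. It stood at 97.3 FPKM in the control, 57.5 in clone 1 and 61.0 in clone 2 (log2 ratios -0.75 and -0.66). ATF3, a stress-induced transcription factor, stood at 1.36, 0.779 and 2.94 FPKM, and GDF15, a secreted stress factor, at 28.6, 18.7 and 37.2 FPKM. ATF3 and GDF15 thus had the order of PPP1R15A and CEBPB, highest in clone 2 and lowest in clone 1. The list as a whole did not share it. CEBPG had the reverse order, at 9.55, 12.2 and 7.48 FPKM. Of the 8 genes, 5 were lower in clone 2 than in clone 1 (median -0.12), against 57.8% of all genes. The other eIF2alpha kinases had medians of 0.12 and 0.14, with EIF2AK1 at 45.1, 44.2 and 38.4 FPKM and EIF2AK4 at 6.04, 6.64 and 7.09 FPKM.

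**Figure D3:**
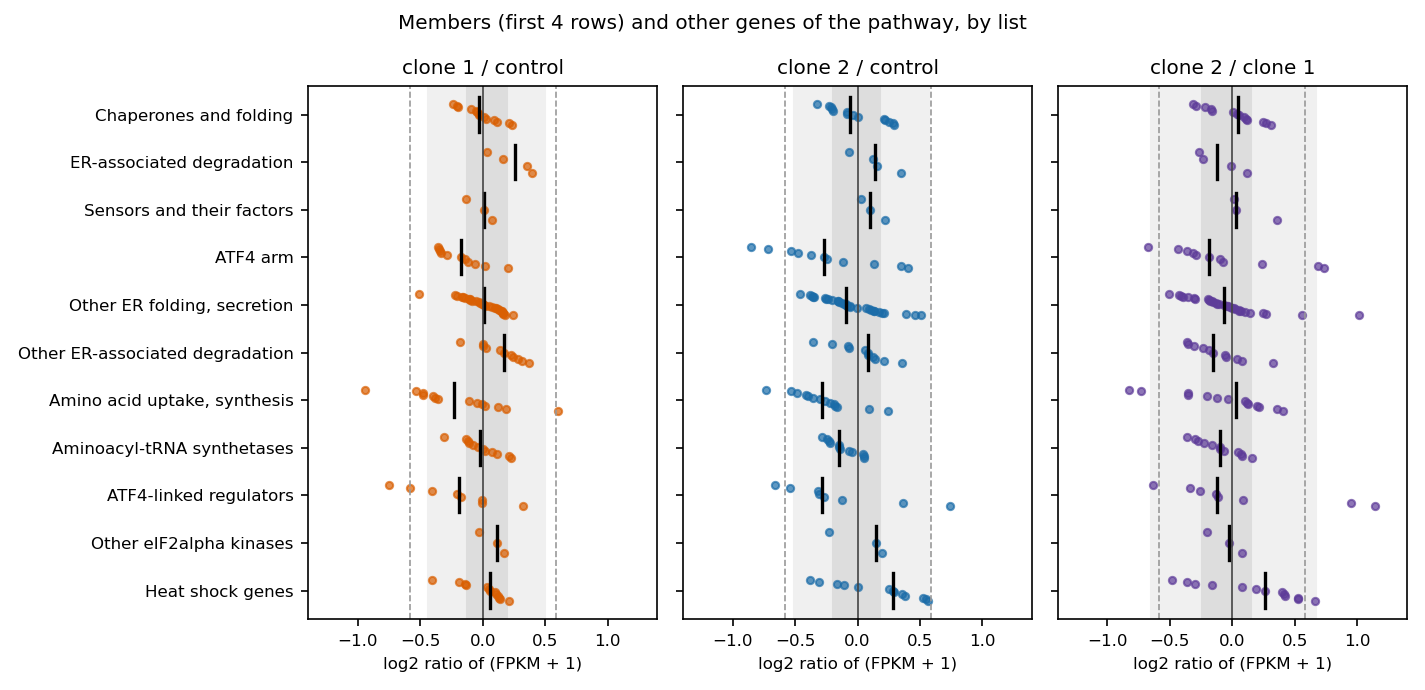
Log2 ratio of FPKM + 1 for each gene above the limit on low values, by list, for clone 1 against control, clone 2 against control and clone 2 against clone 1. Points are genes, black bars are medians, grey bands mark the quartiles and the outer percentiles (p5 to p95) of all 11675 genes, and dashed lines mark 1.5-fold. The ATF4 arm medians (-0.18 and -0.27) and the amino acid list medians (-0.23 and -0.28) lie left of the chaperone medians (-0.03 and -0.06) in both clones.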

How the data were processed

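RNA was extracted with TRIzol, and the TruSeq RNA kit and an Illumina HiSeq instrument were used for sequencing. The submitters' processing notes name Trim Galore 0.3.7, STAR 2.5, Cufflinks 2.2.1, DESeq 1.22.1 and hg19. The authors deposited 1 table of FPKM values, 1 column per library, and no further scaling was applied to them. Symbols and exon lengths came from GENCODE release 29, which held 56996 of 60504 identifiers. Reads were recovered as FPKM times exon length times depth. Within 0.02 of a whole number lay 98.7% to 98.8% of low values of genes with 1 transcript and 88.2% to 89.0% of others. For HSP90B1, DNAJB11, MANF, DDIT3 and PHGDH the length was solved from the values. Intervals are exact and conditional on the sum of the reads, and cover counting error only.

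Log2 ratios used a pseudocount of 1 FPKM and a mean of at least 1 FPKM. The limma test (lmFit and eBayes with trend, two-sided, Benjamini-Hochberg adjustment over 11675 genes) had 1 residual degree of freedom. The files hold FPKM, so no count model was fitted. The members and the lists were chosen with earlier results of these data known. Outside the members, most genes named were those differing 1.5-fold alike in both clones and the 2 per list with the largest difference between the clones. PSPH, SHMT2 and SLC7A5 were chosen after their values were seen, as were genes named to show where a list was split. Alternatives were a pseudocount of 0.1 FPKM, no filter, a mean of at least 5 FPKM, scaling to TPM or by the median ratio, a 2-fold threshold, eBayes without trend and the omission of each clone. The limma step was tested on simulated data with changes larger than those of any member. That check does not show that the step could call differences of the size described here. The other experiments of the paper were not analysed here. R 4.3.3 with limma 3.58.1 and Python 3.11.15 were used, the latter with the packages scipy 1.17.1, pandas 2.3.3, matplotlib 3.10.9 and numpy 2.4.6.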

Additional observations from a re-analysis of the deposited data

How the results depend on the processing

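In each comparison the ATF4 arm median stayed below 0 and below the chaperone median under every pseudocount, filter and scaling tried. The difference of the arm medians was -0.27 in clone 2 and -0.28 between the clones with a pseudocount of 0.1 FPKM, -0.29 between the clones without a filter, and -0.26 in clone 2 with TPM. With a mean of at least 5 FPKM, which left fewer genes, the ATF4 arm median was -0.28 in clone 1, -0.37 in clone 2 and -0.33 averaged over the clones, the difference was -0.25, -0.29 and -0.27, and the chaperone median in clone 2 was -0.0852. The chaperone median took the other sign with TPM, at 0.0282 in clone 1, 0.0084 in clone 2 and 0.0183 averaged, and was -0.0751 in clone 1 and 0.10 between the clones with scaling by the median ratio. The share of all genes lower in clone 1 was 43.8% as deposited, 35.5% with TPM and 50.1% by the median ratio, since scaling moves every ratio of a library together. At 2-fold, 0 members above the limit on low values differed in clone 2 and 0 between the clones. Leaving out clones in turn, the averaged medians ran from -0.06 to -0.03 for the chaperones and from -0.27 to -0.18 for the ATF4 arm, and their difference from -0.21 to -0.15. Without clone 1, 2 members counted as differing 1.5-fold in every clone, PHGDH and PSAT1, and 0 without clone 2. By limma, adjusted p under 0.05 was reached by 0 genes under each setting, with 51 to 1578 genes at an unadjusted p under 0.05. No paired analysis was possible because there was a single control library. Counting intervals of some abundant members, such as XBP1 and DNAJB11, included a ratio of 1, and the spread between cultures of 1 line is unknown.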

Other observations

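Heat shock genes of the cytosol and mitochondria, a folding system outside the ER, were read as a comparison list. Of 13 genes above the limit on low values, 4 were lower than in DLD1 control cells in each clone, against 43.8% of all genes in clone 1 and 51.6% in clone 2, and 5 were higher in both, against 32.4%. The medians were 0.06 in clone 1 and 0.29 in clone 2 (all genes 0.04 and -0.01). The list was split in clone 2. The mitochondrial genes HSPD1, HSPE1 and HSPA9 were lower there, with log2 ratios of -0.11, -0.38 and -0.31, as was HSP90AA1 of the cytosol (-0.16). The other 9 genes, all of the cytosol, were above the control in clone 2, but HSP90AB1 was level with it (log2 ratio 0.0038). None of the 13 differed 1.5-fold from the control, against 6.25% of all genes in clone 1 and 8.33% in clone 2. HSPA8, the constitutive HSP70 of the cytosol, stood at 586 FPKM in the control, 600.0 in clone 1 and 866 in clone 2. HSPB1, a small heat shock protein, stood at 379, 285 and 451 FPKM, lowest in clone 1 and highest in clone 2, as HSPA5 was. The near-identical copies HSPA1A and HSPA1B can share reads, so their values are uncertain.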
